A study of Bos taurus with 30 samples.

Results

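Cytosolic ribosomal proteins, the protein components of the ribosome outside the mitochondria, were described across 30 microarrays of cattle skin. Genes were taken by symbol: RPL or RPS followed by a number and at most a short suffix, plus RPSA, RPLP0, RPLP1 and RPLP2, without the RPS6K kinases. This gave 67 of the 9155 genes that had 1 symbol on the array, read by 94 probe sets, each a group of short probes aimed at 1 transcript. Of the 67 genes, 42 belonged to the large and 25 to the small subunit. Each gene was represented by its probe set with the highest mean over the 30 arrays. A further 16 genes of the same name pattern in RefSeq, among them RPL6, RPL15, RPLP1, RPS27A and RPS4X, had no probe set under that symbol.

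The animals were 13 F2 cattle bred from Gyr (Bos indicus) and Holstein (Bos taurus), 6 labelled tick resistant and 7 labelled tick susceptible. Skin was biopsied before infestation (0 h) and at the sites where ticks fed 24 h and 48 h after infestation. The resistant groups held 5, 6 and 5 arrays and the susceptible groups 3, 6 and 5 at 0 h, 24 h and 48 h, with 1 array per animal and time, so not every animal was seen at every time. The labels do not say how resistance was scored. The animal numbers of at least 2 arrays are in doubt. In deviations from group means over all probe sets, the resistant 0 h arrays numbered 3 and 5 lay nearest, among resistant arrays of later times, to the 24 h arrays of animals 4 and 6 (r = 0.61 and 0.69), against at most -0.16 and -0.089 for later arrays of their own number. The resistant 0 h array numbered 4 correlated at 0.075 with the 24 h array of that number. Susceptible animal 9 at 48 h correlated at -0.13 and -0.044 with the earlier arrays of its number. The comparisons of groups do not use animal numbers, while the fits with animal as a block and the shares of variance between animals do. The values are MAS5 signals on the log2 scale.

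Ribosomal proteins coat and hold together the ribosomal RNA and are needed in near-equal numbers, since each ribosome carries most of them once. In mammals their messenger RNAs mostly begin with a 5′ terminal oligopyrimidine (TOP) tract, through which mTOR and LARP1 set their translation and stability as a group, and MYC raises the transcription of many of them together. A few have roles outside the ribosome, such as RPL5 and RPL11, which bind MDM2 when ribosome assembly is disturbed.

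Nearly all of these genes sat at the top of the signal scale of the array. The median of an array over all probe sets was 7.17 to 7.40, and the highest signal of an array was 14.92 to 15.76. Of the 67 genes, 57 had a mean of 14 or more over the 30 arrays, and 58 of the 121 probe sets with such a mean (47.9%) were probe sets of these genes. The 64 genes that passed the filter on low values (at or above the array median in at least 3 arrays) did so in all 30 arrays. The others were RPL37 (mean 4.71), RPS19 (mean 5.23) and RPL3L (mean 4.36), which passed in 0 arrays, so nothing is said of their regulation. RPL3L is a form of RPL3 known from muscle. RPL37 and RPS19 are core subunits, and each had 1 or more probe sets, none of which passed.

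The 64 genes moved together from array to array. Over the 30 arrays the median Pearson correlation of the 2016 pairs was 0.66, and 75% of pairs were above 0.5. These points share arrays, labelling and scaling, so the correlation is a description. After quantile normalization, which gives all arrays 1 common distribution of signals, the median was 0.13 and 8.09% of pairs stayed above 0.5. These genes supplied 58 of the 121 probe sets with a mean of 14 or more. Setting the top of each array alike therefore takes out much of any shift they share. It cannot tell a shift in the tissue from one of scaling. Among the 63 other probe sets with a mean of 14 or more, the median pairwise correlation was 0.35 in the deposited values.

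The size of this common movement was small. The median of the 64 genes in an array ran from 14.25 (susceptible animal 9 at 24 h) to 14.77 (resistant animal 5 at 48 h), a range of 0.52. After quantile normalization the range was 0.106. Across arrays the median of the 64 genes followed the median of the 63 other bright probe sets with r = 0.83 (30 arrays, same scaling).

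In group means (± SD) the array median of these genes was 14.51 ± 0.075 in resistant skin at 0 h (n = 5) and 14.60 ± 0.025 in susceptible skin at 0 h (n = 3). At 24 h it was 14.50 ± 0.098 in resistant skin (n = 6) and 14.49 ± 0.15 in susceptible skin (n = 6). At 48 h it was 14.63 ± 0.14 in resistant skin (n = 5) and 14.59 ± 0.093 in susceptible skin (n = 5). The 48 h resistant arrays overlapped every other group.

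**Figure D1:**
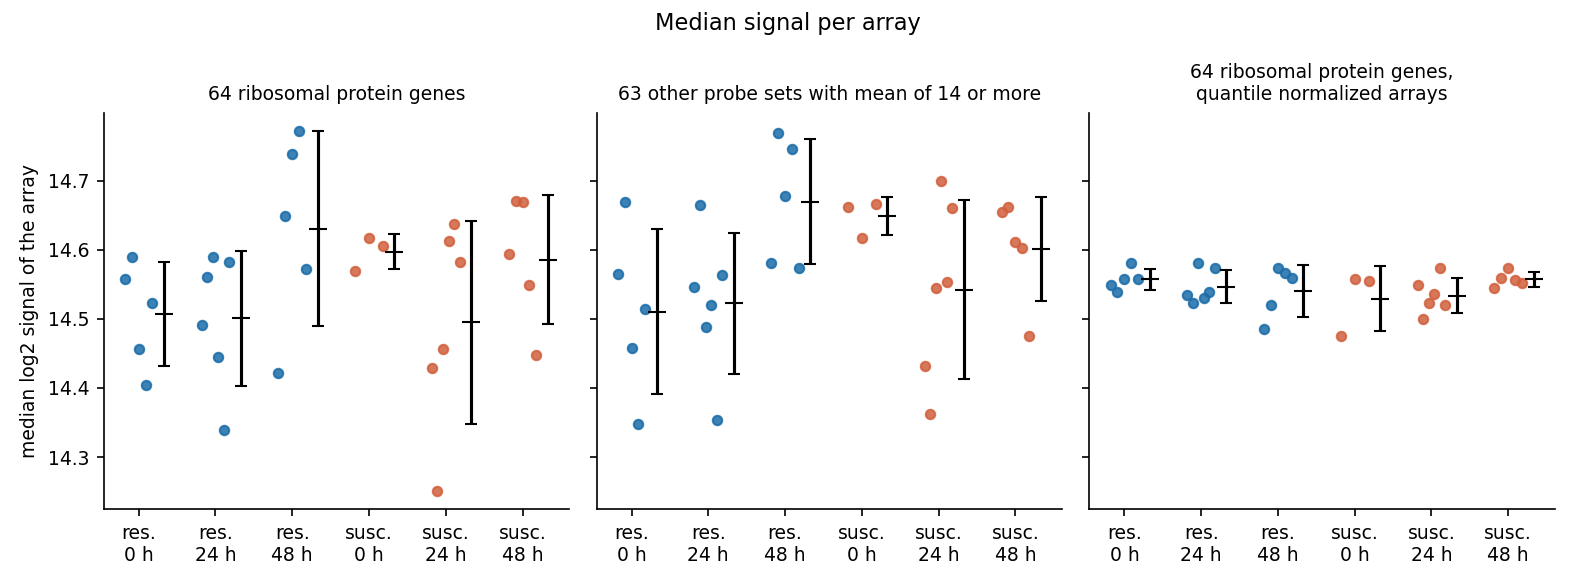
Median log2 signal per array (vertical axis) of the 64 genes in the deposited values, of the 63 other probe sets with a mean of 14 or more, and of the 64 genes after quantile normalization. Each point is 1 array, in 6 groups of phenotype and time, and bars are the mean ± SD of a group. The 64 genes range from 14.25 to 14.77 in the deposited values, the other bright probe sets spread alike, and quantile normalization leaves a range of 0.106.

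No gene of the 64 passed the test (adjusted p under 0.05, limma) in any of the 11 comparisons. Over all 13809 probe sets that passed the filter, 2 passed in resistant against susceptible skin at 48 h (0.0145%) and 0 (0%) in each of the other 10 comparisons. Counts at an unadjusted p under 0.05 are therefore given below as a description, beside the percent of all probe sets that reach it in that direction. Since nothing passed, "higher" and "lower" stand for the sign of a difference only.

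The largest common difference was in resistant skin at 48 h. Against resistant skin at 0 h, 63 of 64 genes were higher, with a median log2 difference of 0.13 and a range from -0.19 to 0.29. Of these, 8 had an unadjusted p under 0.05 and were higher (4.95% of all probe sets reached it on the higher side), and 0 were lower (6.08%). With animal as a fixed block this count was 2, and without an intensity trend in the fit it was 3. Over all 13809 probe sets, 2440 and 1501 then reached an unadjusted p under 0.05 in either direction. With array weights the count of genes was 18, where 1323 of the 13809 probe sets reached it in either direction. The median over all probe sets was -0.015. The 63 other bright probe sets had a median of 0.12 in the same comparison, and 58 of them were higher. After quantile normalization the median of the 64 genes was -0.0051, with 31 of 64 higher and 0 at an unadjusted p under 0.05 (5.04% of all probe sets higher, 5.62% lower), so the direction of the group depends on the scaling. Centring each array on its own median instead left 63 of 64 higher.

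RPL17, which lines the exit of the tunnel through which the new protein leaves, had the smallest p of the 64 in this comparison. In resistant skin at 0 h it read 14.48, 14.36, 14.38, 14.28 and 14.32 in the arrays numbered 1 to 5. At 48 h it read 14.53, 14.46, 14.70, 14.98 and 14.60 in animals 1, 2, 3, 5 and 6. The later values are the higher ones, animals 5 and 3 highest, and the groups overlap by 1 array. The difference was 0.29 ± 0.091 (SE; 95% interval 0.10 to 0.48, adjusted p = 0.296, limma), a ratio of 1.22, and 0.13 ± 0.068 after quantile normalization. In susceptible skin RPL17 was at 14.55, 14.50 and 14.59 at 0 h and between 14.42 and 14.85 at 48 h, and its difference there was 0.12 ± 0.11.

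RPLP2 is an acidic protein of the stalk that recruits elongation factors. It read 14.26, 14.24, 14.15, 14.05 and 14.29 in resistant skin at 0 h and 14.07, 14.35, 14.71, 14.73 and 14.37 at 48 h. Animals 3 and 5 are again the highest at 48 h, animal 1 lies inside the 0 h range, and the difference was 0.25 ± 0.10 (adjusted p = 0.39, limma). RPLP0, the base of the same stalk, differed by 0.12 ± 0.094, and by -0.019 after quantile normalization. RPL14, another large-subunit protein, read 14.18, 14.12, 14.06, 14.04 and 14.19 at 0 h and 14.08, 14.22, 14.48, 14.66 and 14.22 at 48 h. Its difference was 0.22 ± 0.085 (adjusted p = 0.36, limma), with the same 2 animals on top.

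RPL5 and RPL11 form with 5S ribosomal RNA the particle that binds MDM2. RPL5 read 14.51, 14.34, 14.50, 14.59 and 14.53 in resistant skin at 0 h and 14.61, 14.87, 14.62, 14.72 and 14.62 at 48 h. All 5 later arrays lie above all 5 earlier ones, and the difference was 0.19 ± 0.084 (adjusted p = 0.397, limma), or 0.034 after quantile normalization. Besides RPL5, the groups did not overlap in RPL9 (0.16 ± 0.076) and in RPL35A (0.19 ± 0.097), the latter named after its values were seen. These 3 of 64 compare with 1.02% of all probe sets. RPL11 differed by 0.14 ± 0.097 and its groups overlapped. RPL22, which also binds certain viral and cellular RNAs, differed by 0.13 ± 0.10. RPS27, a zinc-binding small-subunit protein, differed by 0.16 ± 0.097, and RPL39, a very short protein of the exit tunnel, by 0.10 ± 0.12.

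Not every gene leaned the same way. RPL7L1, a paralog of RPL7 and counterpart of a yeast factor of ribosome assembly, was the only one of the 64 lower in resistant skin at 48 h than at 0 h. It read 10.46, 10.34, 10.52, 10.67 and 10.85 at 0 h and 10.14, 10.11, 10.59, 10.62 and 10.42 at 48 h. Animals 1 and 2 are the low arrays, the groups overlap, and the difference was -0.19 ± 0.14 (adjusted p = 0.618, limma). RPS6, the small-subunit protein that S6 kinases phosphorylate, differed by 0.086 ± 0.087 in the deposited values and by -0.083 ± 0.045 after quantile normalization.

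**Figure D2:**
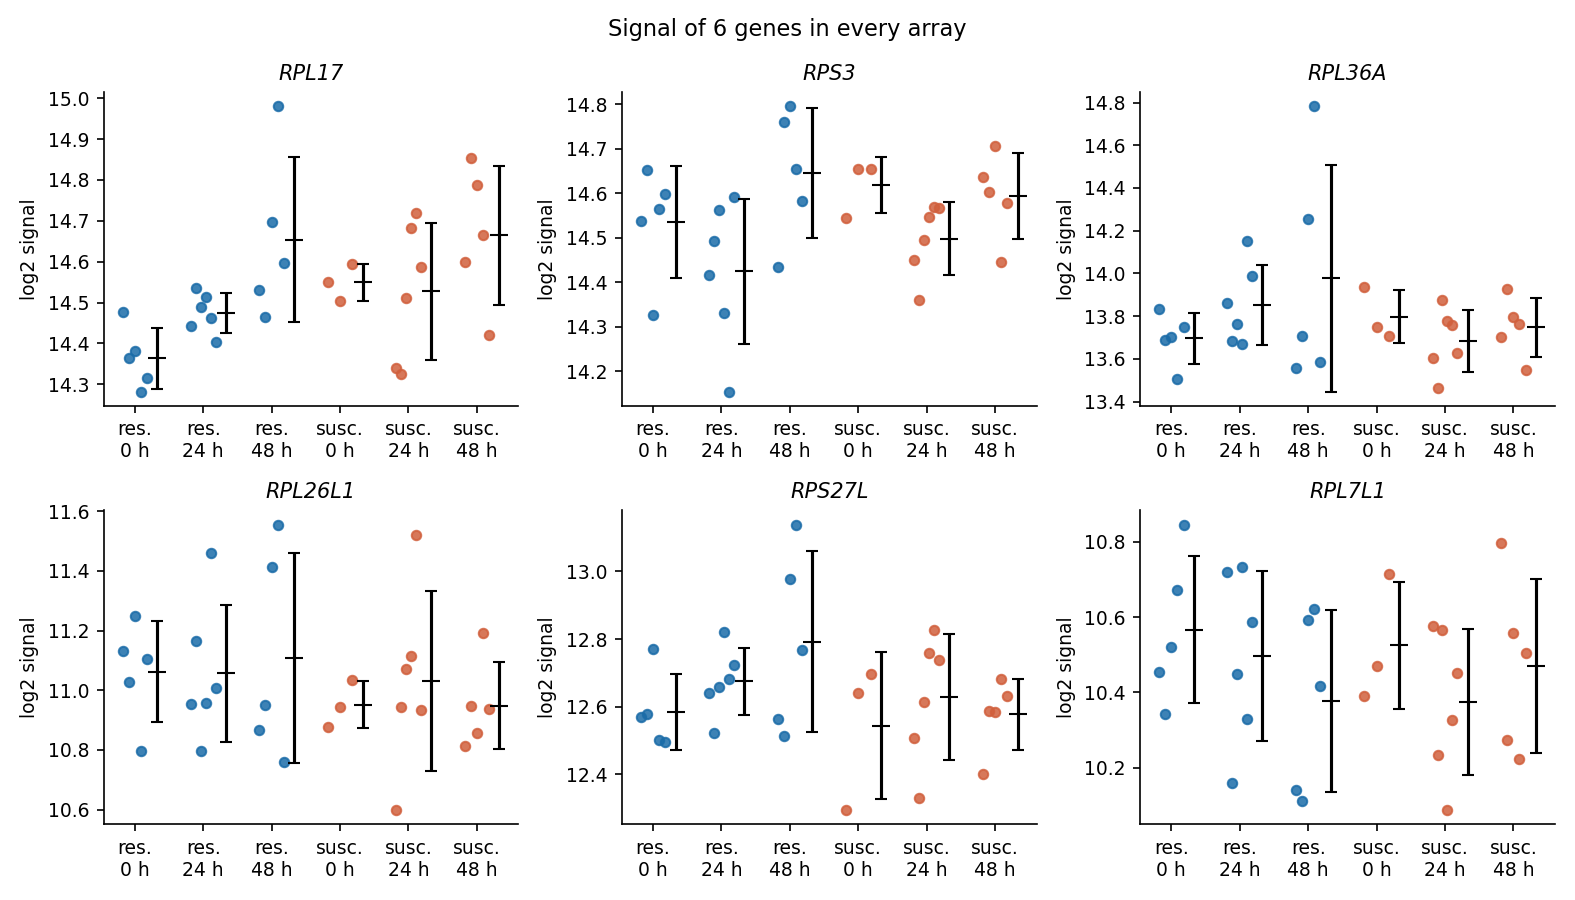
Log2 signal (vertical axes, each with its own range) of RPL17, RPS3, RPL36A, RPL26L1, RPS27L and RPL7L1 in every array, in 6 groups of phenotype and time. Each point is 1 array and bars are the mean ± SD of a group. All groups overlap in part between resistant 48 h and 0 h, and animals 3 and 5 carry the 2 highest resistant 48 h values of RPL17, RPL36A, RPL26L1, RPS27L and RPL7L1.

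The comparison of resistant skin at 48 h with 24 h shares its 48 h arrays with the one above. In it 62 of 64 genes were higher, with a median of 0.14 and 15 at an unadjusted p under 0.05 on the higher side (4.77% of all probe sets) and 0 on the lower side (4.88%). The count was 3 with animal as a fixed block, 5 without an intensity trend and 11 with array weights. Over all 13809 probe sets, 1960, 1303 and 976 then reached an unadjusted p under 0.05 in either direction. The other bright probe sets had a median of 0.12, and quantile normalization brought the 64 genes to 0.0040, with 33 higher. RPS3, at the channel where the message enters the small subunit, had the smallest p. It ran from 14.15 over a median of 14.45 to 14.59 in the 6 arrays at 24 h, and read 14.43, 14.76, 14.80, 14.66 and 14.58 at 48 h. The 48 h arrays of animals 2, 3 and 5 lie above the whole 24 h range, animals 1 and 6 lie inside it, and the difference was 0.22 ± 0.080 (adjusted p = 0.426, limma). RPL21 came next, at 0.19 ± 0.077. RPL7L1 was lower (-0.12 ± 0.13). RPL3, which reaches the peptidyl transferase centre, stood at -0.0020 and turned to 0.0081 after centring.

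These values rest on which 48 h arrays are counted. Without resistant animal 1 at 48 h, the median difference from 0 h was 0.19 with 29 of 64 genes at an unadjusted p under 0.05, and from 24 h it was 0.19 with 34. Without resistant animal 5 at 48 h, the medians were 0.10 and 0.10, with 2 and 3 genes, and without animal 3 they were 0.11 and 0.10, also with 2 and 3 genes. The count against 0 h was 14 without animal 6 and 3 without the 0 h array numbered 4. The count against 24 h was 9 without animal 2 at 48 h, and 6 and 2 without animals 4 and 5 at 24 h. The share of all probe sets with the same array left out is not given here. These counts therefore cannot be set against it, and the genes counted vary together. In the array of animal 1 the median of the 64 genes was 14.42, against 14.57 to 14.77 in the other 4 arrays of its group. That array also held the lowest keratinocyte marker mean of all groups (10.43) and the highest monocyte and macrophage marker mean (10.52). The part of these in the result was not tested, and in a biopsy fewer cells of a type and less RNA per cell cannot be told apart.

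Resistant and susceptible skin at 48 h differed less. Of the 64 genes 52 were higher in resistant skin, with a median of 0.054 and 0 at an unadjusted p under 0.05 in either direction (4.62% of all probe sets higher, 5.45% lower). After quantile normalization 27 were higher, with a median of -0.0086. No single gene's 95% interval reached past 0.55, the bound of RPL36A, or below -0.38. Without resistant animal 1, 12 genes reached an unadjusted p under 0.05 and the median was 0.097, with the other bright probe sets at 0.071. The share of all probe sets with that array left out is not given here, so the 12 cannot be set against it.

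The smallest p at 48 h between phenotypes belonged to RPS27L, a paralog of RPS27 that p53 is known to induce. It read 12.56, 12.51, 12.98, 13.14 and 12.77 in resistant animals 1, 2, 3, 5 and 6, and 12.40, 12.59, 12.59, 12.68 and 12.63 in susceptible animals 7, 9, 10, 11 and 13. The resistant animals 3, 5 and 6 lie above all susceptible arrays and the other 2 lie among them. The difference was 0.22 ± 0.11 (adjusted p = 0.513, limma). RPSA, the small-subunit protein also known as laminin receptor, read 14.40, 14.72, 14.72, 14.84 and 14.61 in resistant and 14.55, 14.47, 14.63, 14.48 and 14.46 in susceptible skin, a difference of 0.14 ± 0.077. Its resistant animal 1 is the lowest of all 10 arrays. The genes lower in resistant skin included RPL3 (-0.11 ± 0.12) and RPL7L1 (-0.094 ± 0.14).

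Before infestation the lean was the other way. At 0 h, 56 of 64 genes were lower in resistant skin and 8 higher, with a median of -0.083 and 2 at an unadjusted p under 0.05 on the lower side (3.14% of all probe sets) and 0 on the higher side (1.38%). The count on the lower side was 10 with array weights and 11 with only the arrays compared (smallest adjusted p 0.482 and 0.683, limma). Over all 13809 probe sets, 1081 and 872 then reached an unadjusted p under 0.05 in either direction. The other bright probe sets had a median of -0.14. After quantile normalization 41 genes were higher, with a median of 0.022, so this direction too turns with the scaling. In 13 genes all resistant arrays lay below all susceptible ones (3.16% of all probe sets), among them RPL3, RPL9, RPL11, RPL17, RPL27A, RPS4Y1 and RPS7. In quantile normalized values the groups were apart in RPL3 (lower) and RPSA (higher).

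RPS7, a small-subunit protein, read 14.23, 14.19, 14.12, 13.96 and 14.14 in the resistant arrays at 0 h and 14.33, 14.26 and 14.40 in the susceptible ones. Array 4 is the lowest, and the difference was -0.21 ± 0.093 (unadjusted p = 0.0347, adjusted p = 1, limma), or -0.095 ± 0.059 after quantile normalization. RPL27A read 14.74, 14.61, 14.69, 14.52 and 14.62 against 14.94, 14.85 and 14.83, a difference of -0.24 ± 0.11 (adjusted p = 1, limma). RPL3 read 14.47, 14.65, 14.50, 14.37 and 14.45 against 14.69, 14.70 and 14.80, a difference of -0.24 ± 0.13. The susceptible group holds only 3 arrays, and without resistant array 4 the median over the 64 genes was -0.055. The genes on the higher side with the smallest p were RPS28 (0.082 ± 0.13), which lies near the exit of the message, and RPL26L1 (0.11 ± 0.18).

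At 24 h the median difference between phenotypes was close to 0. Of the 64 genes 33 were higher in resistant skin, with a median of 0.0012 and 0 at an unadjusted p under 0.05 (2.07% of all probe sets higher, 2.33% lower). RPL10, which is loaded late in the assembly of the large subunit, ran from 14.38 over 14.61 to 14.89 in resistant skin and from 14.30 over 14.48 to 14.64 in susceptible skin. The groups overlap, and the difference was 0.14 ± 0.090 (adjusted p = 0.978, limma). After quantile normalization it was 0.16 ± 0.070, the groups were apart, and the adjusted p was 0.974 (limma). RPS28 differed by 0.14 ± 0.10. No single gene's 95% interval in this comparison reached past 0.46 or below -0.30.

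**Figure D3:**
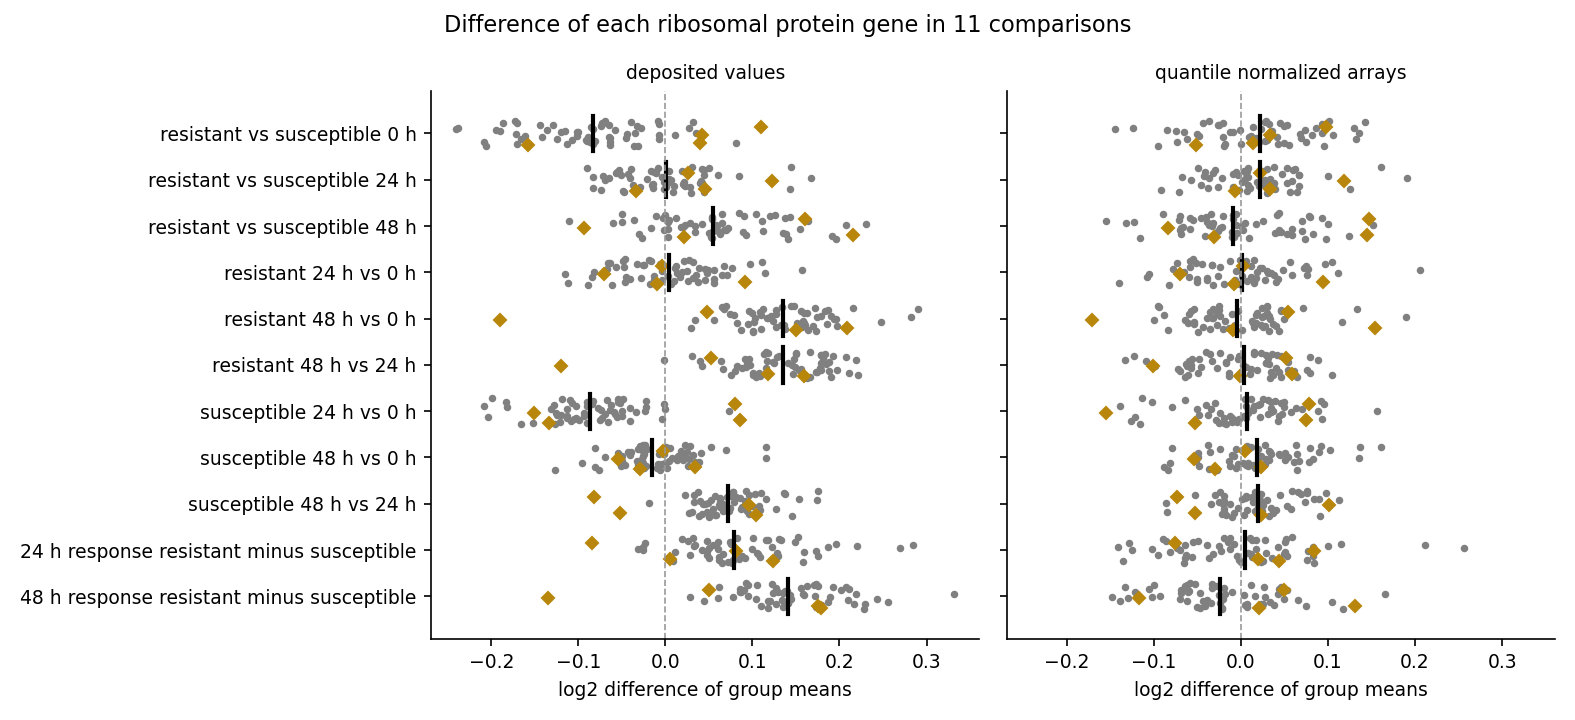
Log2 difference of group means (horizontal axis) of each of the 64 genes in the 11 comparisons (rows), from the deposited values on the left and after quantile normalization on the right. Points are genes, gold diamonds the paralogs RPL26L1, RPL7L1, RPS27L and RPS4Y1, and black bars the median. The medians of resistant 48 h against 0 h and 24 h stand at 0.13 and 0.14 on the left and at -0.0051 and 0.0040 on the right.

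Within the resistant animals, 24 h against 0 h gave a median of 0.0047 with 33 of 64 genes higher and 0 at an unadjusted p under 0.05 (2.74% of all probe sets higher, 1.98% lower). RPL7 (0.11 ± 0.11) and RPL17 (0.11 ± 0.087) were higher, and RPL8, which lies at the peptidyl transferase centre (-0.12 ± 0.094), and RPS3 (-0.11 ± 0.080) were lower.

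Within the susceptible animals, 24 h against 0 h gave a median of -0.087 with 61 of 64 genes lower and 0 at an unadjusted p under 0.05 (0.97% of all probe sets higher, 1.33% lower). The other bright probe sets were at -0.10, and quantile normalization moved the 64 genes to 0.0071, with 36 higher. RPL10 (-0.20 ± 0.11) and RPSA (-0.13 ± 0.087) were the 2 genes whose groups did not overlap (0.739% of all probe sets). RPL10 read 14.65, 14.67 and 14.74 at 0 h, all above the 24 h maximum of 14.64. The smallest p belonged to RPL18, at -0.18 ± 0.091 (unadjusted p = 0.0527, adjusted p = 1, limma). Without susceptible animal 9 at 24 h, the array with the lowest median of all 30, the median difference was -0.033.

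At 48 h the susceptible animals stood at a median of -0.015 against 0 h, with 24 of 64 genes higher, and at 0.072 against 24 h, with 61 higher. In both comparisons 0 genes had an unadjusted p under 0.05 (0.572% of all probe sets higher and 0.377% lower against 0 h, 1.25% and 0.63% against 24 h). Quantile normalization gave medians of 0.018 and 0.020. RPL31, which sits at the tunnel exit, was higher at 48 h than at 24 h by 0.17 ± 0.090 and RPS7 by 0.15 ± 0.077. RPL5 was higher at 48 h than at 0 h by 0.12 ± 0.097, and RPS9 was at -0.13 ± 0.14.

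The test of the difference between phenotypes asks whether the change from 0 h was larger in resistant skin. For 48 h, 63 of 64 genes had a larger difference in resistant skin, with a median of 0.14, and 0 had an unadjusted p under 0.05 (1.75% of all probe sets higher, 1.18% lower). The other bright probe sets had a median of 0.16. After quantile normalization 25 genes were higher, with a median of -0.024. RPL21 (0.21 ± 0.12) had the smallest p (0.1 unadjusted, 1 adjusted, limma), followed by RPS16 (0.26 ± 0.16). RPL7L1 was at -0.14 ± 0.21. For 24 h, the median was 0.079 with 59 higher and 0 at an unadjusted p under 0.05 (1.35% of all probe sets higher, 0.492% lower), and 0.0042 after quantile normalization. RPL3 had 0.28 ± 0.17 and RPL31 0.22 ± 0.14 there, both at an adjusted p of 1 (limma). These tests share the 0 h arrays with the comparisons of time.

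The 2 subunits had like medians. From 0 h to 48 h in resistant skin the 40 large-subunit genes had a median of 0.13 and the 24 small-subunit genes a median of 0.14. Between phenotypes at 48 h the medians were 0.048 and 0.062, and at 0 h -0.079 and -0.085.

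The median within-group SD of the 64 genes was 0.143, against 0.317 over all probe sets and 0.168 for the other bright probe sets, and it was 0.0914 after quantile normalization. Most of these signals lie near the highest signal of an array, and the part of that position in the small SDs was not tested. RPS4Y1 (0.105), RPL9 (0.108) and RPSA (0.110) had the smallest values. RPL36A (0.256), RPL26L1 (0.244), RPL7L1 (0.214), RPL39 (0.194) and RPS9 (0.187) had the largest. Of the 64 genes, 48 correlated above 0.7 with the median of the other 63. Those least tied to the rest were RPL7L1 (r = 0.03), RPL26L1 (0.27), RPS28 (0.36), RPL5 (0.38), RPS27L (0.48) and RPL36A (0.51), over 30 arrays that share the scaling. After quantile normalization 3 genes correlated above 0.7, the median r was 0.28 in place of 0.83, and the order was another. RPL5 stayed low (-0.21), next to RPS29 (-0.21), named after its values were seen, and RPL7 (-0.13), while RPL7L1 was at 0.37, RPS28 at 0.35 and RPS27L at 0.54. RPL7L1, RPL26L1, RPS28, RPS27L and RPL36A also had means below 14, where RPL5 did not. RPL12 (mean 13.99) and RPS9 (13.61) lay below 14 too. In the deposited values their r was 0.93, the highest of the 64, and 0.63.

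**Figure D4:**
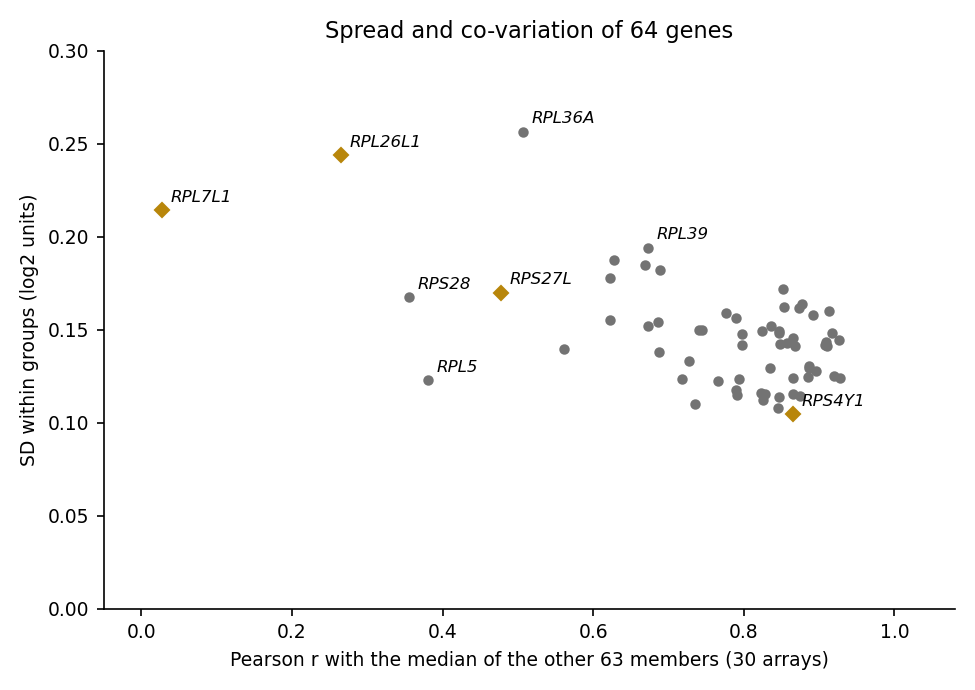
Within-group SD (vertical axis, log2 units) of each of the 64 genes against its Pearson r with the median of the other 63 genes over 30 arrays (horizontal axis). Points are genes and gold diamonds the 4 paralogs. RPL36A, RPL26L1 and RPL7L1 have the largest SDs (0.256, 0.244 and 0.214), and RPL7L1 has the lowest r (0.03), and RPS4Y1 the smallest SD (0.105) in the deposited values plotted. After quantile normalization r was 0.37 for RPL7L1 and 0.080 for RPS4Y1, so their order turns with the scaling.

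RPL36A, which lies at the site where spent transfer RNA leaves, had the widest range of the 64 genes, 13.47 to 14.78. In resistant skin at 48 h it read 13.56, 13.70, 14.25, 14.78 and 13.59 in animals 1, 2, 3, 5 and 6. Animals 5 and 3 stand above the other arrays of the group, and animal 5 was also the highest of the 6 resistant arrays at 24 h, at 14.15. The group mean was 13.98 ± 0.53 (SD, n = 5), against 13.70 ± 0.12 at 0 h, and the difference of 0.28 ± 0.16 had an adjusted p of 0.507 (limma).

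RPL26L1, a near-identical paralog of the tunnel-exit protein RPL26, was among the genes that varied most within groups. In resistant skin at 48 h it read 10.87, 10.95, 11.41, 11.56 and 10.76 in animals 1, 2, 3, 5 and 6, and at 24 h it ran from 10.80 over 10.98 to 11.46, with animal 5 the highest at both times. Animal 3 was the lowest at 24 h (10.80) but read 11.41 at 48 h, and the 0 h array of that number, which is in doubt, read 11.25. In susceptible skin it ran from 10.60 over 11.01 to 11.52 at 24 h, with animal 8 lowest and animal 12 on top. Animals 8 and 12 were seen only at 24 h, so their whole deviation counts as between animals in the share below. Of its variance over the 30 arrays, 69.9% lay between animals, the largest share of the 64 genes in the deposited values. RPL32 (60.1%), RPS27L (55.7%), RPS9 (54.7%) and RPL7L1 (52.7%) followed. The median share was 33.5% for the 64 genes and 47.6% over all probe sets, where the degrees of freedom alone give 41.4%. After quantile normalization the medians were 50.7% and 47.9%, RPL26L1 was at 69.8%, RPL35A had the largest share (76.9%) and RPL32 had 53.2%, so the place of the 64 genes against all probe sets turns with the scaling.

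The symbol RPS4Y1 names a Y-linked copy of RPS4 in humans, but RefSeq (ARS-UCD2.0) lists the cattle gene of its probe sets on chromosome 23, an autosome. The brightest probe set read 14.65, 14.70, 14.66, 14.57 and 14.62 in resistant and 14.77, 14.75 and 14.88 in susceptible skin at 0 h, so the groups were apart. Its r with the median of the other genes was 0.87 in the deposited values and 0.080 after quantile normalization. Probes of a gene may also bind the transcripts of near-identical copies, such as RPS4X here or processed pseudogenes, and the array does not separate them.

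Further probe sets of the same genes mostly did not follow the brightest one. There were 27 in 18 genes, 23 of which passed the filter. Over the 30 arrays 2 of the 27, of RPL10 and RPLP0, correlated with the chosen probe set above 0.7. Below 0.3 were 22, including every one that failed the filter. Some read near the array medians of 7.17 to 7.40, such as those of RPL3 (mean 7.24), RPL26 (7.06) and RPS27L (6.98). Low signal alone can lower r, and its part was not tested. Those under 0.3 with the highest means were of RPL24 (12.08), RPS3 (11.81 and 11.36) and RPS4Y1 (11.18). For RPS3 a second probe set correlated at -0.40 and a further one at 0.24. For RPS4Y1 the values were 0.03 and -0.12, the latter from a probe set that did not pass the filter. Besides these, a measured second probe set lay under 0.3 for RPL3 (0.02), RPL7 (0.10), RPL19 (0.26), RPL21 (0.14), RPL24 (-0.04), RPL26 (-0.16), RPL32 (-0.05), RPS7 (-0.12), RPS15A (0.299) and RPS27L (-0.12). The same held for RPLP0 (0.21), for 2 probe sets of RPL7L1 (0.12 and 0.27) and for 2 of RPS12 (-0.05 and 0.11).

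Of the 23 further probe sets, 10 had an unadjusted p under 0.05 in at least 1 of the 11 comparisons, against 31.4% of all 13809 probe sets, and 0 passed after adjustment. The smallest p belonged to RPS12, a small-subunit protein, whose further probe set was higher in resistant skin at 24 h than at 0 h by 0.70 ± 0.19 (unadjusted p = 0.000787, adjusted p = 0.543, limma). Of RPL32, one further probe set was higher in resistant than in susceptible skin at 48 h by 0.85 ± 0.33 (adjusted p = 0.387, limma) and the other by 0.45 ± 0.30, where the brightest one stood at -0.060 ± 0.093. For RPL24 the same comparison gave 0.60 ± 0.24 (adjusted p = 0.412, limma) in the second probe set and 0.14 ± 0.093 in the brightest one. Which transcripts these probe sets read was not tested. With the median over all probe sets of a gene that passed, the median difference from 0 h to 48 h in resistant skin was 0.13, as with the brightest ones.

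Genes that make or regulate ribosomes were set beside the 64 genes from lists chosen by function. Of 31 measured ribosome biogenesis genes, 24 were lower in resistant skin at 48 h than at 0 h, with a median of -0.14, and 4 had an unadjusted p under 0.05, all on the lower side (6.08% of all probe sets), with 0 adjusted calls (limma). Among them NOB1, the nuclease that finishes the small subunit's RNA (-0.56 ± 0.17), TCOF1, a nucleolar factor of ribosomal RNA transcription (-0.38 ± 0.12), NOLC1, its partner in the nucleolus (-0.32 ± 0.14), and RRP1, a factor of large-subunit RNA processing (-0.31 ± 0.14), were lower. Against 24 h 27 of 31 were lower, with a median of -0.15. Against susceptible skin at 48 h 22 were lower, with a median of -0.14, and TCOF1 was at -0.38 ± 0.12 and NOLC1 at -0.42 ± 0.14. Quantile normalization takes out much of a shift shared at the top of the scale, where the 64 genes sit, while this list reads lower. Whether a sign stays is therefore no contrast between them and this list, whose medians were then -0.13, -0.14 and -0.13. Leaving out 1 array at a time gave -0.22 to -0.065 against 0 h, -0.25 to -0.087 against 24 h and -0.21 to -0.056 between phenotypes. The values nearest to 0 came without resistant animal 2 at 48 h (against 0 h) and without animal 1 (the other 2 comparisons), and the farthest without animal 6 (against 0 h) and animal 5.

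The array median of the biogenesis list in resistant skin at 48 h was 8.77, 8.87, 9.33, 9.28 and 9.42 in animals 1, 2, 3, 5 and 6. Animals 1, 2, 3 and 5 lie below every array of resistant skin at 0 h, whose lowest was 9.35, with animals 1 and 2 farthest, and animal 6 lies inside that range. Over the same arrays the keratinocyte marker mean was 10.43, 11.97, 12.33, 12.25 and 12.66, and the monocyte and macrophage marker mean 10.52, 9.93, 9.58, 9.64 and 9.52, so the lowest biogenesis arrays, of animals 1 and 2, were also those with the lowest keratinocyte and the highest macrophage marker means. The part of this in the result was not tested.

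Other TOP genes had no common sign. The 20 measured translation factors and related genes had a median of 0.038 from 0 h to 48 h in resistant skin, 11 higher and 9 lower, and -0.073 after quantile normalization. The 3 with an unadjusted p under 0.05 were VIM, the intermediate filament gene of mesenchymal cells (0.42 ± 0.13), FAU, which encodes RPS30 fused to a ubiquitin-like protein (0.27 ± 0.11), and EEF1B2, an elongation factor subunit (0.33 ± 0.15), with adjusted p-values of 0.294, 0.391 and 0.417 (limma).

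Of 17 measured regulators, 13 were lower in the same comparison, with a median of -0.13, the same after quantile normalization, and 5 at an unadjusted p under 0.05, all lower (6.08% of all probe sets). With 1 array left out the median was -0.22 (without the 0 h array numbered 3) to -0.064 (without animal 1 at 48 h). They were MYC (-0.59 ± 0.21), MXI1, a MYC antagonist (-0.37 ± 0.13), RHEB, the activator of mTOR (-0.32 ± 0.11), DDIT4, an mTOR inhibitor induced by stress (-0.38 ± 0.18), and ATF4, a transcription factor of the stress response (-0.30 ± 0.13), none past the threshold (adjusted p 0.316 to 0.423, limma). Ribosomal proteins of the mitochondrion, a separate set of 67 genes, had a median of 0.010, 35 higher and 32 lower. The 29 constitutive proteasome subunits had a median of 0.019, 17 higher and 12 lower.

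**Figure D5:**
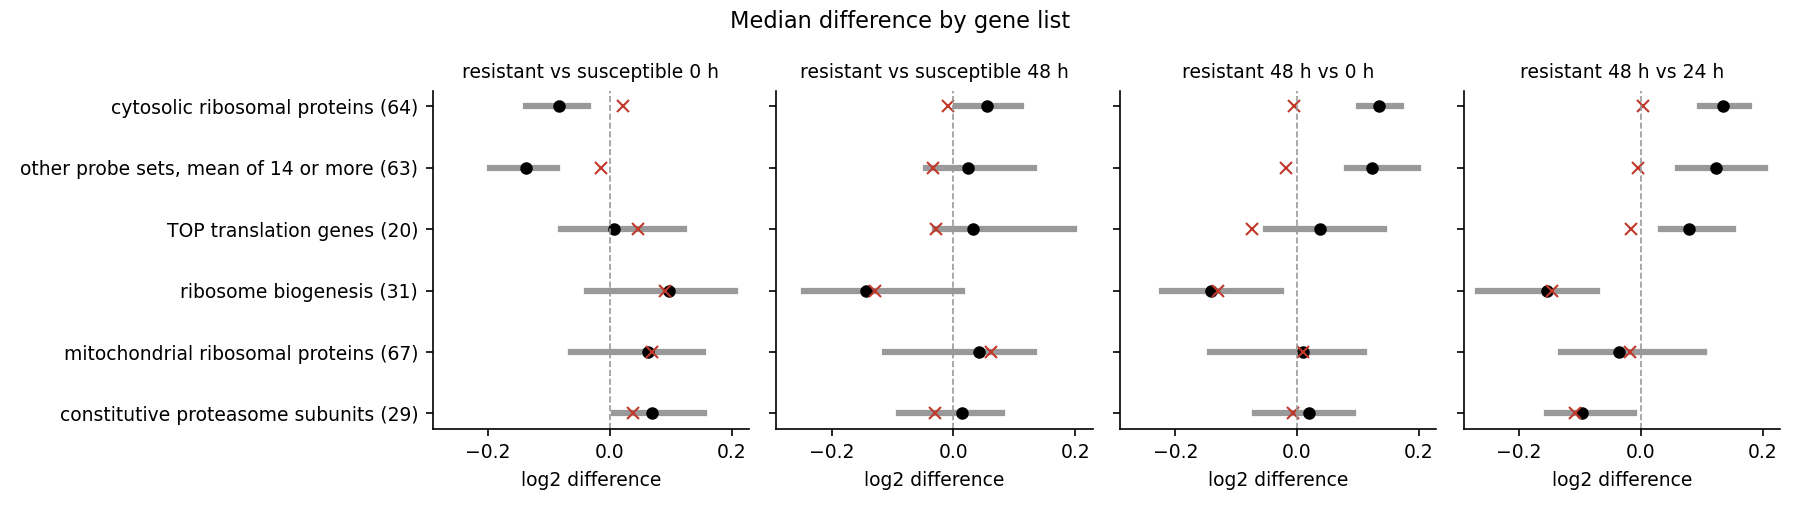
Median log2 difference (horizontal axis) of the 64 genes, the 63 other bright probe sets and 4 other gene lists in 4 comparisons. Black points are medians of the deposited values, grey bars the middle 50% of genes and red crosses the medians after quantile normalization, and the number of genes stands in brackets. The ribosomal protein and other bright medians at resistant 48 h (0.13 and 0.12 against 0 h) move to about 0 after quantile normalization. The ribosome biogenesis median against 0 h (-0.14) moves to -0.13. Quantile normalization takes out much of a shift shared by the brightest probe sets, so this is no contrast between the lists.

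The biopsies carried the transcripts of skin. Of the keratinocyte markers 8 of 10 and of the fibroblast markers 7 of 7 were measured above the filter, with array means of 10.43 to 13.51 and 11.71 to 13.68. In resistant skin at 48 h the keratinocyte mean was 10.43 to 12.66, against 12.35 to 12.70 at 0 h and 11.78 to 13.51 in susceptible skin at 48 h. The mean of the 8 monocyte and macrophage markers was 9.52 to 10.52, against 8.23 to 9.36 at 0 h and 7.34 to 9.30 in susceptible skin, so this marker mean was apart from both groups. Of the 3 erythroid markers on the array 0 passed the filter. As signs of RNA quality, the difference of 3′ and 5′ probe sets of GAPDH was 0.33 to 1.0 in resistant skin at 48 h and 0.19 to 0.76 at 0 h. That of actin was 1.16 to 4.86 and 1.92 to 3.43, and that of EF1A -1.07 to 0.50 and -1.31 to 1.07. For the DAP spike control it was 2.09 to 2.91 and 1.90 to 4.95. The part of these differences in the common shift of the 64 genes was not tested.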

How the data were processed

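RNA of 30 skin biopsies was hybridised to Affymetrix bovine arrays. Per the submitters' processing notes, the authors computed MAS5 values, deposited here as log2 signal, and no MAS5 version is named in the sources read. After undoing the log, every array had a 2% trimmed mean of 500. The deposited log2 values were therefore scaled by array but not quantile normalized, which leaves bright probe sets free to shift together between arrays. Precision is limited by how many arrays each group has.

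The array holds 24128 probe sets. Without its 112 controls 24016 remained, of which 13809 were kept (at or above the array median in at least 3 arrays). Symbols came from the platform annotation: 13292 probe sets had 1 symbol, 86 several and 10638 none. All 67 symbols matched RefSeq. Group means of the 6 groups were estimated in a single limma fit of the 30 arrays (limma 3.58.1, R 4.3.3, eBayes with intensity trend). Tests are two-sided, with Benjamini-Hochberg adjustment across the 13809 probe sets. The replicates within a group are separate animals. Animals recur across times, and the main fit does not use that pairing. The fit was tested on simulated data with independent noise in every probe set and array. That setting lacks the common movement of these genes and the repeated animals. Figures used matplotlib 3.10.9.

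Members and gene lists were chosen with earlier results of these data known. Genes are named by rule: any that passed, the 2 smallest p-values in each direction of a comparison, the 5 largest and 3 smallest within-group SDs, the 5 largest shares of variance between animals, paralogs, a fixed set of well-known members, and genes whose further probe sets had r under 0.3 or an opposite difference; others are said to be named after their values were seen. Animal numbers in the labels pair arrays. Deviations from group means in 24 pairs of the same number correlated at -0.24 to 0.63 (median 0.25, 16 above 0.1), and 17 of 27 arrays lay closest to their own number. Alternatives were quantile normalization, centring, no filter, animal as a block, no trend, array weights, an offset of 16, other array sets, the median over probe sets, and leaving out each array.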

Additional observations from a re-analysis of the deposited data

Results flagged for a closer look

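In the groups of 5 or 6 arrays, the highest or the lowest array of named genes was set against the others by Dixon's ratio. This is its gap to the nearest array over the range of the group. Of 190 gene and group pairs, 10 stood past the 95% value, and chance flags about 1 in 20 groups. The pairs share arrays and genes that vary together.

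The array of resistant animal 5 at 24 h stood past that value at the low end of its group in 4 genes, with RPL3 at 14.07, RPL5 at 14.31, RPL9 at 14.28 and RPS27 at 14.58. In resistant skin at 0 h, RPL9 was lowest in array 4, at 14.33. In resistant skin at 48 h, RPL11 was lowest in animal 1, at 14.69. In susceptible skin, RPL22 was highest in animal 12 at 24 h, at 14.96. At 48 h, RPL8 was lowest in animal 11, at 13.95, and animal 13 was lowest in RPL31, at 14.19, and in RPL24, at 14.43. The part of any array property in these values was not tested.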

How the results depend on the processing

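No ribosomal protein gene passed the test under any alternative. With array weights, 18 and 11 genes reached an unadjusted p under 0.05 in resistant skin at 48 h against 0 h and 24 h. Between phenotypes at 0 h 10 did, all on the lower side. Over all 13809 probe sets, 1323, 976 and 1081 did so in these comparisons with array weights, in either direction. Quantile normalization moved the median of the 64 genes from -0.083 to 0.022 between phenotypes at 0 h, from 0.13 to -0.0051 and from 0.14 to 0.0040 in resistant skin at 48 h against 0 h and 24 h, and from 0.14 to -0.024 in the 48 h test of the difference between phenotypes. Leaving out 1 array at a time gave medians of -0.10 to -0.055 between phenotypes at 0 h, -0.049 to 0.030 at 24 h and 0.027 to 0.097 at 48 h. In resistant skin they were -0.029 to 0.033 for 24 h against 0 h, 0.10 to 0.19 for 48 h against 0 h and 0.099 to 0.19 for 48 h against 24 h. In susceptible skin they were -0.12 to -0.033, -0.038 to 0.017 and 0.021 to 0.11, and in the 2 tests of the difference 0.035 to 0.12 and 0.11 to 0.19. With animal as a fixed replicate block the median for resistant skin at 48 h was 0.12 against 0 h and 0.12 against 24 h. Then 2 and 3 genes had an unadjusted p under 0.05, in place of 8 and 15. Over all 13809 probe sets, 2440 and 1960 did in either direction, in place of 1522 and 1332. After adjustment 84 of all probe sets passed against 0 h with the fixed block, where 0 passed without it and 2 with a random block. With the fixed block and without resistant 0 h arrays 3 and 5, a choice made after seeing the data, 128 passed. The fixed block turned RPS27L (susceptible skin, 48 h against 24 h) to 0.011, RPL7L1 (48 h difference) to 0.0078 and RPL5 (24 h difference) to 0.020; without arrays 3 and 5 the last 2 were 0.055 and 0.074. Between phenotypes at 48 h, 2 probe sets of all passed, 4 without the filter, and 0 to 14 with 1 array left out. Single genes near 0 changed sign with 1 array left out: RPL3 in resistant skin at 48 h against 24 h (-0.10 to 0.035, and 0.0081 after centring), RPL5 and RPS27L in susceptible skin at 24 h against 0 h (up to 0.15 and -0.039 to 0.16), RPL26L1 in susceptible skin at 48 h against 24 h (-0.17 to 0.016) and in the 24 h difference (-0.17 to 0.014), and RPL5 in the 24 h difference (-0.11 to 0.048). The cause was not tested. The unadjusted 95% intervals excluded 0 for 8 of 64 genes in resistant skin at 48 h against 0 h and for 15 against 24 h. Between phenotypes at 0 h they excluded 0 for 2 genes. Over all 13809 probe sets, 1522, 1332 and 623 had an unadjusted p under 0.05 in these comparisons, in either direction. In the other comparisons the interval of every gene held 0.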
